A study of Mus musculus with 18 samples.

Results

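Adipokines are the hormones and other proteins that fat cells secrete, and they are followed here together with intracellular proteins that are characteristic of fat cells. The members were 10 named genes, chosen by symbol: Adipoq, Lep, Cfd, Retn, Agt, Car3, Pck1, Adig, Tusc5 and Nnat. All 10 were found among the 46983 genes of the expression table, and all 10 passed the filter on low values. Agt, Car3, Nnat and Adig reached it in lipochondrocytes as well, while Adipoq, Lep, Cfd, Retn, Pck1 and Tusc5 passed only through the adipocyte libraries. The cells in question were lipochondrocytes, the chondrocytes of mouse ear cartilage that store lipid, taken at postnatal days 8, 10, 13, 21 and 33 (P8 to P33), and adipocytes of inguinal fat taken at P33.

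Each of the 6 groups had 3 libraries, 18 in all. All mice, including those that gave the adipocytes, carried Wnt1-Cre2;TdTomato on a C57BL/6 background. Wnt1-Cre2 is a Cre driver active in the neural crest, so TdTomato marks neural crest derivatives. P8, P10 and P13 lipochondrocytes were freed with collagenase and sorted through a TdTomato High gate. P21 and P33 lipochondrocytes were digested in the same way but were collected by flotation, as were the adipocytes, so P33 lipochondrocytes and adipocytes matched in age and in isolation. The labels number the libraries within a group without saying whether each came from its own animal, so p-values measure only the spread between libraries.

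Library sizes ran from 12461965 to 27640142 reads, with 73.19% to 84.44% aligned. Values are FPKM, that is, fragments per kilobase of gene scaled to the aligned fragments of the library, which adjusts for gene length and depth. FPKM does not adjust for differences in composition between libraries. Summed FPKM ran from 880622 to 1245105 per library. Mitochondrially encoded genes took 23.3% to 25.5% of it in adipocyte libraries and 3.67% to 5.96% in lipochondrocyte libraries. Results with other scalings are therefore given beside the main ones. In the shallowest and the deepest library 1 fragment was worth 0.111 and 0.0472 FPKM for Cfd, and 0.0309 and 0.0132 FPKM for Tusc5. Values of a few hundredths therefore stand for a few fragments at most. A value of 0 can stand for a transcript below 1 fragment per library. None of 8 housekeeping genes was at 0 in any library. The cell labels were checked against markers. The 10 chondrocyte markers summed to 16700 to 27300 FPKM in lipochondrocyte libraries and to 1.35 to 2.07 FPKM in adipocyte libraries. The 10 adipocyte markers summed to 12 to 60.6 FPKM in lipochondrocyte libraries and to 44500 to 46300 FPKM in adipocyte libraries.

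A mature white fat cell stores triglyceride in a single droplet and acts as an endocrine cell. Adiponectin (Adipoq) raises insulin sensitivity, leptin (Lep) signals the size of the fat store to the hypothalamus, and adipsin (Cfd) is the protease that cleaves factor B in the alternative complement pathway. Resistin (Retn) is secreted by fat cells in mice, and angiotensinogen (Agt), made by liver and fat, is the precursor of the angiotensins. Among the intracellular members, carbonic anhydrase III (Car3) is a cytosolic enzyme of fat, liver and slow skeletal muscle. Cytosolic phosphoenolpyruvate carboxykinase (Pck1) supplies glycerol 3-phosphate for triglyceride through glyceroneogenesis. Adipogenin (Adig) is a small membrane protein of fat cells, Tusc5, now named Trarg1, regulates the trafficking of the glucose transporter GLUT4, and neuronatin (Nnat) is an imprinted proteolipid of brain and fat.

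The promoters of 4 members are shown because these genes span the range of the results: Lep was never detected in lipochondrocytes, Cfd was the most abundant member in adipocytes, Adig reached the highest percent of the adipocyte level after Agt, and Agt differed least. Each line gives the 250 bases before the RefSeq start of the gene (GRCm38.p6), written 5′ to 3′ on the strand of the gene. They lie at chr6:29059971-29060220 (plus strand) for Lep, chr10:79890603-79890852 (plus strand) for Cfd, chr2:158502362-158502611 (plus strand) for Adig and chr8:124569707-124569956 (minus strand) for Agt. Capitals mark matches to the 3 motifs that were searched on both strands.
Lep: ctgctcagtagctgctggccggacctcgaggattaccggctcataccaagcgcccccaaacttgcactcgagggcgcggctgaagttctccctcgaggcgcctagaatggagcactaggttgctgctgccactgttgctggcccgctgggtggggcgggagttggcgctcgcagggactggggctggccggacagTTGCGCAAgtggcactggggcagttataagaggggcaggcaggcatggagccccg
Cfd: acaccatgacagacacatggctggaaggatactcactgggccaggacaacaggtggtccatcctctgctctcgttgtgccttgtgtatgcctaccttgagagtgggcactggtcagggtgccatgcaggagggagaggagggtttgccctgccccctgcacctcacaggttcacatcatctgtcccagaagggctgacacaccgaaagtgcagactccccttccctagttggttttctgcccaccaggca
Adig: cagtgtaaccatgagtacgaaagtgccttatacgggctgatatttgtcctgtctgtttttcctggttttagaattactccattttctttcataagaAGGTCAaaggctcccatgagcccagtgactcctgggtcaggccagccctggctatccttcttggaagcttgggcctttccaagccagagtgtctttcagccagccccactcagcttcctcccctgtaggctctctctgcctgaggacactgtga
Agt: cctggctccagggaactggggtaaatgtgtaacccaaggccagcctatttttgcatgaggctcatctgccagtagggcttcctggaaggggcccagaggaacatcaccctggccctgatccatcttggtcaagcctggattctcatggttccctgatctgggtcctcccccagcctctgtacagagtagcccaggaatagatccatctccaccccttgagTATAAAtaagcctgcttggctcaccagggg

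The motifs were the TATA box TATAAA, which is found in 12.4% of the 32851 RefSeq promoter windows of the same length, the C/EBP motif TTGCNNAA, found in 9.56%, and the nuclear receptor half-site AGGTCA, found in 14.0%. Lep held a C/EBP match that starts at -55, Adig a half-site at -154 and Agt a TATA box at -30, counted from the start of the gene, and no match overlapped another. The windows of the other 5 members with a RefSeq promoter, Cfd, Adipoq, Retn, Pck1 and Nnat, held none of these letters. Promoter windows of Car3 and Tusc5 were not used here. A match describes the letters of the window and was not tested as a binding site.

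In lipochondrocytes the secreted members were at or near 0 at every stage. Adipoq (chr16:23146536-23158028, GRCm38) was listed at 0 in all P8 and P10 libraries and was at 0.15, 0 and 0 FPKM at P13. It was at 0.54, 0.59 and 0.56 FPKM at P21, at 0.16, 0.16 and 1.31 FPKM at P33, and at 7651, 7473 and 7965 FPKM in adipocytes. A single P33 library, the third, thus carried most of the Adipoq of that stage, and no lipochondrocyte library came near the adipocytes. Cfd (chr10:79890853-79892655) was listed at 0 in all 9 sorted libraries. It was at 0.98, 2.12 and 0.86 FPKM at P21, at 0.6, 0.26 and 0.8 FPKM at P33, and at 35931, 35112 and 40936 FPKM in adipocytes. In adipocytes Cfd ranked 4 among all genes by mean FPKM, ahead of the other members, and its P33 level in lipochondrocytes was of the order of Adipoq and Retn.

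Lep (chr6:29060220-29073877) was listed at 0 in all 15 lipochondrocyte libraries and was at 177, 174 and 175 FPKM in adipocytes. It was the only member listed at 0 in every lipochondrocyte library, and no fold is given for it. Retn (chr8:3655770-3660110) was at 0, 0.08 and 0 FPKM at P8, at 0 in the 3 P10 libraries, and at 0, 0.1 and 0.11 FPKM at P13. At P21 it was at 0.61, 1.09 and 1.24 FPKM, at P33 at 0.65, 0.45 and 0.12 FPKM, and in adipocytes at 5176, 5120 and 5231 FPKM. The P21 libraries were all above the sorted ones, and the lowest P33 value, 0.12 FPKM, was next to the highest sorted one, 0.11 FPKM.

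Agt (chr8:124556534-124569706, minus strand) was the exception among the secreted members, with a signal in all 15 lipochondrocyte libraries. Its levels were 0.67, 0.88 and 1.43 FPKM at P8, 0.66, 0.63 and 0.88 FPKM at P10, and 0.67, 1.17 and 1.48 FPKM at P13. They were 2.26, 2.27 and 2.02 FPKM at P21, 0.84, 1.43 and 0.93 FPKM at P33, and 76.3, 80.2 and 82 FPKM in adipocytes. The 3 P21 libraries lay above all other lipochondrocyte libraries, whose ranges overlapped from stage to stage.

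The intracellular members showed 3 different courses. Car3 (chr3:14863512-14872523) was at 0, 0.11 and 0.14 FPKM at P8, at 0.1, 0.07 and 0.06 FPKM at P10, and at 0.05, 0.37 and 0.37 FPKM at P13. It was at 4.98, 4.38 and 4.1 FPKM at P21, at 1.77, 2.02 and 4.93 FPKM at P33, and at 28217, 28971 and 28817 FPKM in adipocytes. Every buoyant lipochondrocyte library was above every sorted one. Adig (chr2:158502612-158508198) followed the same course, listed at 0 in 8 of the 9 sorted libraries, with 0.16 FPKM in the second P13 library. It was at 2.35, 2.33 and 2 FPKM at P21, at 0.4, 1.4 and 2.04 FPKM at P33, and at 499, 477 and 504 FPKM in adipocytes. The P33 values were the most uneven, and the third P33 library reached the lowest P21 value.

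Pck1 (chr2:173153048-173159273) was listed at 0 in the 9 sorted libraries and was at 0.27, 0.17 and 0 FPKM at P21 and at 0, 0.08 and 0 FPKM at P33, against 812, 794 and 827 FPKM in adipocytes. Tusc5 (chr11:76679808-76698664) stayed between 0 and 0.06 FPKM in all lipochondrocyte libraries, against 235, 230 and 244 FPKM in adipocytes. For Tusc5, then, differences between stages were of the size of a few fragments, and 1 fragment of Pck1 was worth 0.0127 to 0.0298 FPKM.

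Nnat (chr2:157560078-157562522) ran the other way and was highest in the youngest cells. It was at 1.6, 2.23 and 1.77 FPKM at P8, at 1.17, 1.77 and 1.69 FPKM at P10, and at 0.33, 0 and 0.15 FPKM at P13. At P21 it was at 0.67, 0.91 and 0.22 FPKM, at P33 at 0.24, 0.48 and 0.54 FPKM, and in adipocytes at 862, 839 and 871 FPKM. The P8 and P10 libraries did not overlap with any later lipochondrocyte library. Nnat lies on the plus strand inside Blcap, which is on the minus strand, and the counting is not stated to use strand, so reads of the pair may not have been told apart and the level of Nnat is uncertain. Blcap itself was at 3.32 ± 0.29 FPKM at P8, 2.37 ± 0.1 at P10, 3.5 ± 0.5 at P13, 5.9 ± 0.13 at P21, 7.1 ± 0.64 at P33 and 50.6 ± 1.7 FPKM in adipocytes (SD, n = 3 each).

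**Figure D1:**
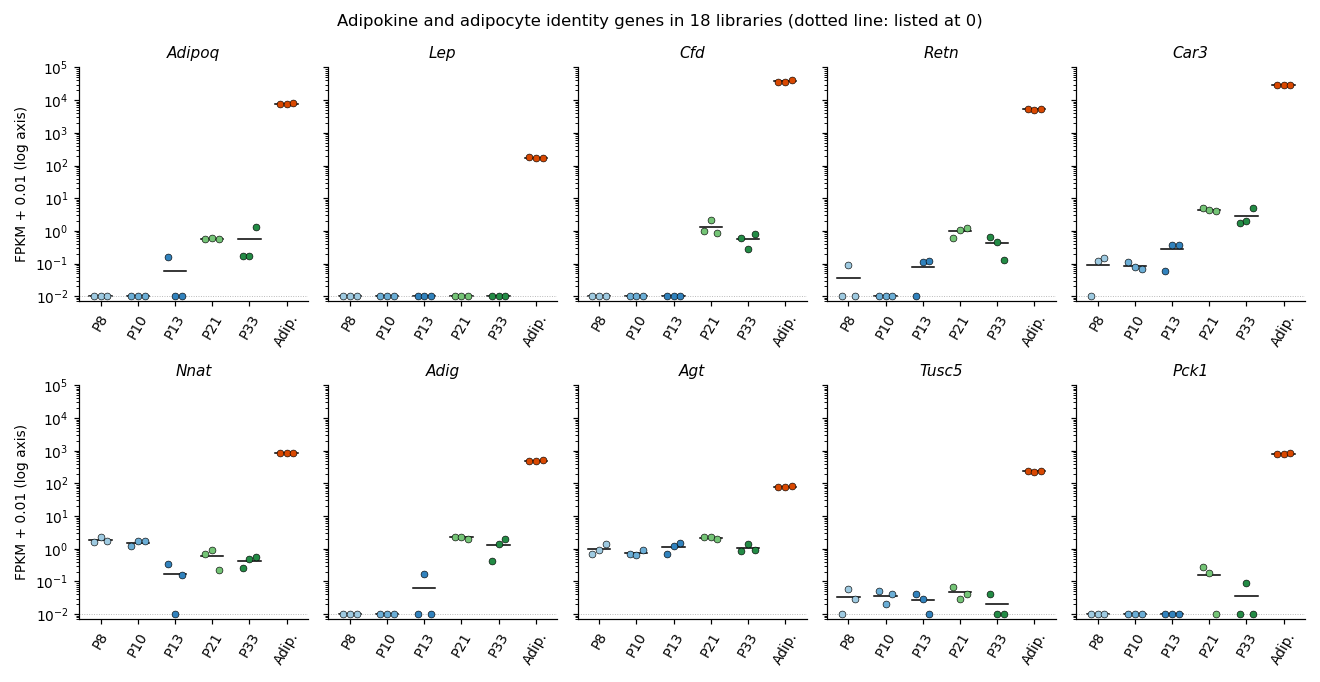
FPKM of each member in the 18 libraries, on a log axis after adding 0.01, with 3 points a group, a bar at the group mean and a dotted line where a gene is listed at 0. Every adipocyte library lies above every lipochondrocyte library in all 10 panels. Lep stays on the dotted line in all 15 lipochondrocyte libraries, while Car3 and Adig step up at P21.

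All 10 members were lower in lipochondrocytes than in adipocytes at every stage. In the model over all genes, which compares log2(FPKM + 1), P33 lipochondrocytes were below adipocytes by a log2 difference of -12.93 for Car3 (SE 0.21, limma, adjusted p = 1.69e-16), -9.25 for Nnat (SE 0.16, 4.34e-16), -7.83 for Adig (SE 0.19, 1.71e-14) and -5.29 for Agt (SE 0.16, 1.89e-13). Of the members that passed the filter only through the adipocytes, and so had to differ, the differences were -14.56 for Cfd, -12.36 for Adipoq, -11.86 for Retn, -9.63 for Pck1 and -7.88 for Tusc5, given as a description with no test. Because 1 is added to every value, these differences understate the change of a gene near 0, and for such genes their order follows the adipocyte level. Pck1 was the median of the 9 members other than Lep, and the median of all 13815 genes tested was -0.28.

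Of all genes tested, 44.5% were called lower (adjusted p below 0.05) and 24% higher in P33 lipochondrocytes than in adipocytes, or 34.9% and 30.3% with median-of-ratios scaling, which sets libraries by their median gene. The share called lower than adipocytes was 43.1% at P21, 54% at P13, 58.9% at P10 and 52.2% at P8. Since 6 members passed the filter only through the adipocytes, the count of 10 of 10 is a description. In bulk RNA, fewer cells that carry a transcript and less of it per cell cannot be told apart.

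Expressed as a percent of the mean adipocyte level, 9 of the 10 members at P8, P13, P21 and P33, and all 10 at P10, averaged under 1%. Agt averaged 1.25% at P8, 0.91% at P10, 1.39% at P13, 2.75% ± 0.18 at P21 and 1.34% ± 0.4 at P33. Adig was listed at 0 at P8 and P10 and averaged 0.0108% at P13, 0.451% ± 0.04 at P21 and 0.259% ± 0.17 at P33. Nnat averaged 0.218% at P8, 0.18% at P10, 0.0187% at P13, 0.07% at P21 and 0.049% at P33 (SD, n = 3 for each stage).

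The other members stayed lower still. At P33 Car3 averaged 0.0101%, Retn 0.00786%, Adipoq 0.00706%, Tusc5 0.00423%, Pck1 0.00329% and Cfd 0.00148% of the adipocyte level, and Lep was listed at 0. At P21 the same members averaged 0.0157% for Car3, 0.0189% for Retn, 0.00732% for Adipoq, 0.0155% for Tusc5, 0.0181% for Pck1 and 0.00354% for Cfd. The members therefore did not share a single percent at either stage. At P33 the SDs exceeded the means for Adipoq, Tusc5 and Pck1, so the order of members below 0.02% is not resolved. Summed, the members took 7.46% to 7.96% of all FPKM in adipocyte libraries, whereas they took 0.000951% to 0.00123% at P21 and 0.000377% to 0.000911% at P33.

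**Figure D2:**
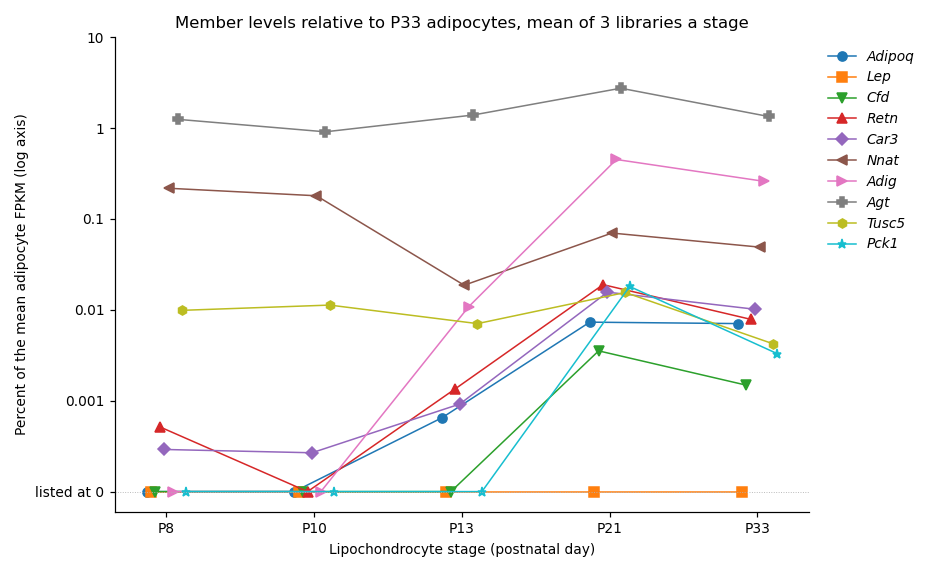
Mean level of each member at the 5 lipochondrocyte stages as a percent of its mean in adipocytes, on a log axis with 0 drawn at the bottom, from 3 libraries a stage. Agt runs between 0.91% and 2.75%, Adig climbs to 0.451% at P21, Nnat drops to 0.0187% at P13, and Lep stays at 0.

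The steps between stages are where the members could be tested among lipochondrocytes. Over the 5 stages 7 of the 10 members differed (limma F test, adjusted p below 0.05), against 66.8% of all genes tested. They were Car3 (adjusted p = 2.08e-07), Adig (3.42e-06), Nnat (2.01e-05), Cfd (3.8e-05), Retn (7.26e-05), Agt (0.00201) and Adipoq (0.0121). Pck1 (0.238), Tusc5 (0.998) and Lep, which has no value above 0 to compare, were not called.

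Among members, Nnat alone was called up to P13. Most members could hardly differ there. Adipoq, Lep, Cfd, Adig and Pck1 were listed at 0 in all P8 and P10 libraries, and Lep, Cfd and Pck1 at P13 too. Retn, Car3 and Tusc5 did not exceed 0.14 FPKM at P8 and P10. In P10 against P8, 0 members were called in either direction by limma, and 0 had an unadjusted p under 0.05. Of all genes, 1.9% were called higher and 9.14% lower (3.6% and 0.905% with median-of-ratios scaling). The member count is therefore a description. In P13 against P10, Nnat fell by 1.13 on the log2 scale (SE 0.16, adjusted p = 2.55e-04) and was the only member called, against 18.6% of all genes called higher and 4.03% lower (8.14% and 8.56% with median-of-ratios scaling). In P13 against P8, Nnat was again the only member called, at a log2 difference of -1.31 (SE 0.16, adjusted p = 2.26e-04), against 2.69% of all genes called higher and 1.52% lower. The lowest P8 and P10 value, 1.17 FPKM, was above the highest P13 value, 0.33 FPKM. Fibroblast and perichondrium markers moved in the same step: 13 of 14 were called lower in P13 against P10, and their summed level was 2480 to 3260 FPKM at P13 and 7400 to 9570 FPKM at P10. Their part in the change of Nnat was not tested.

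In P21 against P13, 7 of the 10 members rose, against 36% of all genes called higher and 7.04% called lower (16% each with median-of-ratios scaling). Car3 rose most, by a log2 difference of 2.13 (SE 0.21, adjusted p = 2.02e-06), followed by Adig at 1.62 (SE 0.19, 1.27e-05) and Cfd at 1.17 (SE 0.16, 5.82e-05). Retn rose by 0.88 (SE 0.14, 1.54e-04), Agt by 0.61 (SE 0.16, 0.00657), Adipoq by 0.58 (SE 0.19, 0.0243) and Nnat by 0.45 (SE 0.16, 0.039), all p-values being from limma and adjusted over all genes. The P21 and P13 libraries did not overlap for the first 6 of these and overlapped for Nnat. Pck1 differed by 0.19 (adjusted p = 0.0969) and was not called, and neither were Tusc5 and Lep. The median member differed by 0.59 and the median gene by 0.29. With median-of-ratios scaling, which brings the median gene to 0.01, the calls of Agt (0.35, adjusted p = 0.0795), Adipoq (0.49, 0.0555) and Nnat (0.34, 0.131) were lost and 4 members stayed called. The call of Adipoq was also lost without P13 library 2 or 3 or P21 library 2 or 3, with adjusted p of 0.0536 to 0.0682. That of Nnat was also lost without P13 library 2 (0.146) or 3 (0.0813) or P21 library 1 (0.105) or 2 (0.175), with no filter (0.0632), with only the compared groups in the fit (0.123) and with the same sum over genes not encoded by the mitochondrial genome (0.0725, limma).

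Age and isolation changed together in that step, since P13 cells were sorted and P21 cells were floated, and their effects cannot be told apart. Markers of other cells moved with it. The summed adipocyte markers were at 42.4 to 60.6 FPKM at P21 and 19.8 to 21.8 FPKM at P13, with 7 of 10 called higher (4 with median-of-ratios scaling). Skeletal muscle markers summed to 331, 89.3 and 589 FPKM in the 3 P21 libraries and to 26.2 to 39 FPKM at P13, with 8 of the 8 tested called higher. Erythroid markers summed to 84.3 to 451 FPKM at P21 and 4.74 to 7.86 FPKM at P13, with 4 of 5 called higher and Slc4a1 at 0. Macrophage markers summed to 20.3 to 36 FPKM at P21 and 3.84 to 5.04 FPKM at P13, with 8 of 12 called higher. Fibroblast and perichondrium markers summed to 6760 to 12800 FPKM at P21 and 2480 to 3260 FPKM at P13, with 8 of 14 called higher and 2 lower (7 and 4 with median-of-ratios scaling). The part of any of these in the rise of the members was not tested. Car3, itself a gene of slow skeletal muscle, was at 4.98, 4.38 and 4.1 FPKM in the P21 libraries with muscle sums of 331, 89.3 and 589 FPKM. Its relation to the muscle markers was not tested.

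In P33 against P21, 3 members fell and none rose, against 7.17% of all genes called lower and 2.87% called higher. Agt fell by 0.63 (SE 0.16, adjusted p = 0.0205), Cfd by 0.55 (SE 0.16, 0.0465) and Retn by 0.50 (SE 0.14, 0.0326), all on the log2 scale with limma. The P33 and P21 libraries did not overlap for Agt and Cfd and overlapped for Retn. Car3 differed by -0.58 (adjusted p = 0.103) and Adig by -0.57 (0.0787), and neither was called. With median-of-ratios scaling the call of Cfd was lost (-0.49, 0.0675), as it was with the replicate block (0.062, limma), and 2 members stayed called. The count depended on single libraries. Without P33 library 3, the one with the most Adipoq, Car3 and Adig of its stage, 5 members were called lower, including Car3 at -0.92 (2.32e-04), Adig at -0.81 (0.00573) and Adipoq at -0.43 (0.00471), and without P21 library 2, which had the most Cfd, 0 were called. Without P33 library 1 or 2, 1 member was called. Summed adipocyte markers were at 23.3 to 34.7 FPKM at P33 and 42.4 to 60.6 FPKM at P21, with 3 of 10 called lower, and macrophage markers at 38.5 to 70.7 FPKM at P33 and 20.3 to 36 FPKM at P21, with 6 of 12 called higher. P33 library 3 had the highest muscle sum of its stage, 235 FPKM against 29.8 and 57.8 FPKM in the other libraries of P33, and the lowest adipocyte marker sum, 23.3 FPKM, and the part of either in its Car3, Adig and Adipoq was not tested.

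**Figure D3:**
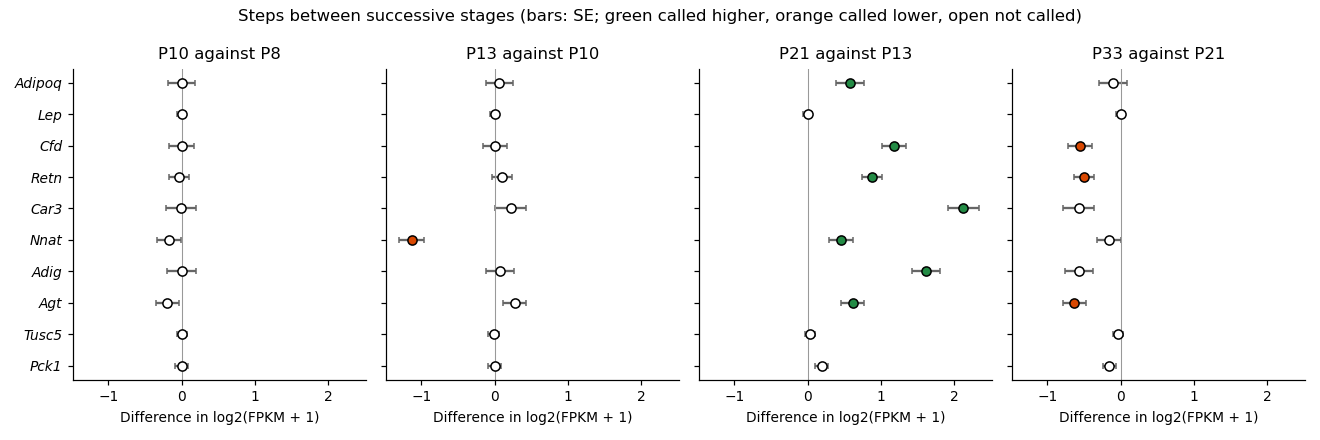
Difference of each member in log2(FPKM + 1) between successive stages, later minus earlier, with bars of 1 SE from the limma fit. Green points were called higher, orange points called lower and open points not called: none in P10 against P8, Nnat lower in P13 against P10, 7 higher in P21 against P13, and 3 lower in P33 against P21.

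The wider families of the members were described from lists of related genes, chosen by function. Their counts stand beside the shares of all genes tested, which were 44.5% lower and 24% higher in P33 against adipocytes, 36% higher and 7.04% lower in P21 against P13 (16% each with median-of-ratios scaling), and 2.87% higher and 7.17% lower in P33 against P21. List genes that passed the filter only through the adipocytes had to differ from them, so counts against adipocytes are descriptions. Among 21 adipocyte core genes, which include transcription factors, droplet proteins and lipid handling genes of fat, 20 were lower and 1 was higher in P33 lipochondrocytes than in adipocytes, where 44.5% of all genes were lower and 24% higher. The fatty acid carrier Fabp4 was at 4.73 ± 0.93 FPKM at P33, against 33501 ± 1161 FPKM in adipocytes (SD, n = 3 each), and the droplet fusion protein Cidec at 0.0933 ± 0.081 FPKM at P33, against 2782 ± 111 FPKM in adipocytes. S100a1, a calcium-binding protein of chondrocytes as well as muscle, was the higher one, at 633 ± 80 FPKM at P33 and 318 ± 9.6 FPKM in adipocytes. In P21 against P13, 16 of the 21 rose and 1 fell, against 36% and 7.04% of all genes, with the largest rises in Sncg, gamma-synuclein (4.16, SE 0.29, adjusted p = 5.02e-08), and Thrsp, a lipogenic nuclear protein (4.02, SE 0.26, 2.38e-08, limma for both). With median-of-ratios scaling 10 of the 21 rose in this step, against 16% of all genes. In P33 against P21, 7 fell and 1, Sncg, rose.

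Set beside these core genes as a percent of the adipocyte level, Agt and Adig lay among them. The secreted Adipoq, Cfd, Retn and Lep and the intracellular Car3, Pck1 and Tusc5 lay at their low end. Nnat, at 0.049% at P33 and 0.07% at P21, lay below Adig and above these. Pparg, the master regulator of fat cell differentiation, averaged 8.51% at P33 and 13% at P21, Sncg 27.1% at P33 and 8.1% at P21, and S100a1 199% at P33 and 344% at P21. At the low end, Fabp4, close to Retn and Car3 at P33, averaged 0.0141% at P33 and 0.049% at P21. Cidec averaged 0.0034% at P33 and 0.018% at P21, and Adrb3, the beta-3 adrenergic receptor of fat cells, was at 0 like Lep.

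**Figure D4:**
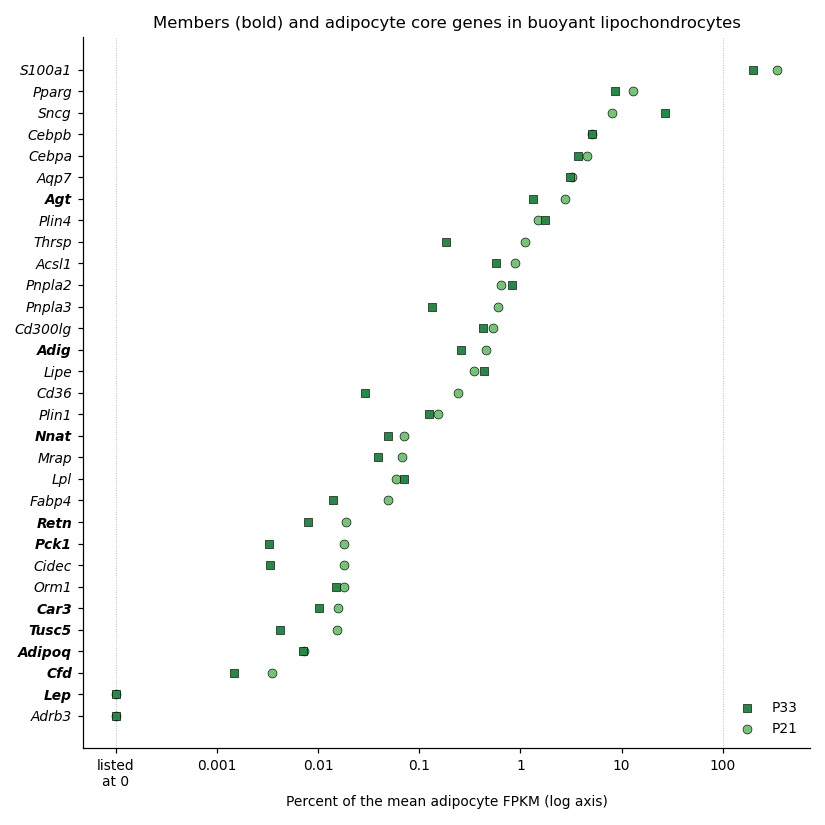
Mean percent of the adipocyte FPKM at P33 (squares) and P21 (circles) for the 10 members, in bold, and the 21 adipocyte core genes, ordered by the P21 value on a log axis with 0 at the left. Agt and Adig lie among core genes at 0.1% to 10%, Cfd and Adipoq lie under 0.01% at both stages, and Lep and Adrb3 are at 0.

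Unlike adiponectin itself, most of its C1q/TNF paralogs were expressed in lipochondrocytes. Of the 9 paralogs, 6 were higher and 2 lower in P33 lipochondrocytes than in adipocytes, against 24% higher and 44.5% lower among all genes. C1qtnf3, the cartilage-enriched member also known as cartducin, averaged 150 ± 29 FPKM at P8, 103 ± 7.5 at P10, 139 ± 17 at P13, 61.9 ± 11 at P21 and 25.3 ± 10 at P33, against 0.397 ± 0.17 FPKM in adipocytes. C1qtnf5 averaged 87.4 ± 39 FPKM at P21 and 45.9 ± 24 FPKM at P33, against 5.85 ± 1.2 FPKM in adipocytes, and C1qtnf4 30.1 ± 16 FPKM at P33, against 0.297 ± 0.081 FPKM in adipocytes (SD, n = 3 each). C1qtnf9 went the way of adiponectin, at 0.0933 ± 0.13 FPKM at P33 and 26.9 ± 0.48 FPKM in adipocytes. In P21 against P13, 6 paralogs rose, with C1qtnf5 at 2.62 (SE 0.35, adjusted p = 3.74e-05) and Fam132a, also named C1qtnf12, at 1.98 (SE 0.23, 1.09e-05), while C1qtnf3 fell by 1.16 (SE 0.22, 8.37e-04, limma). C1qtnf3 fell again in P33 against P21, as did C1qtnf1.

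**Figure D5:**
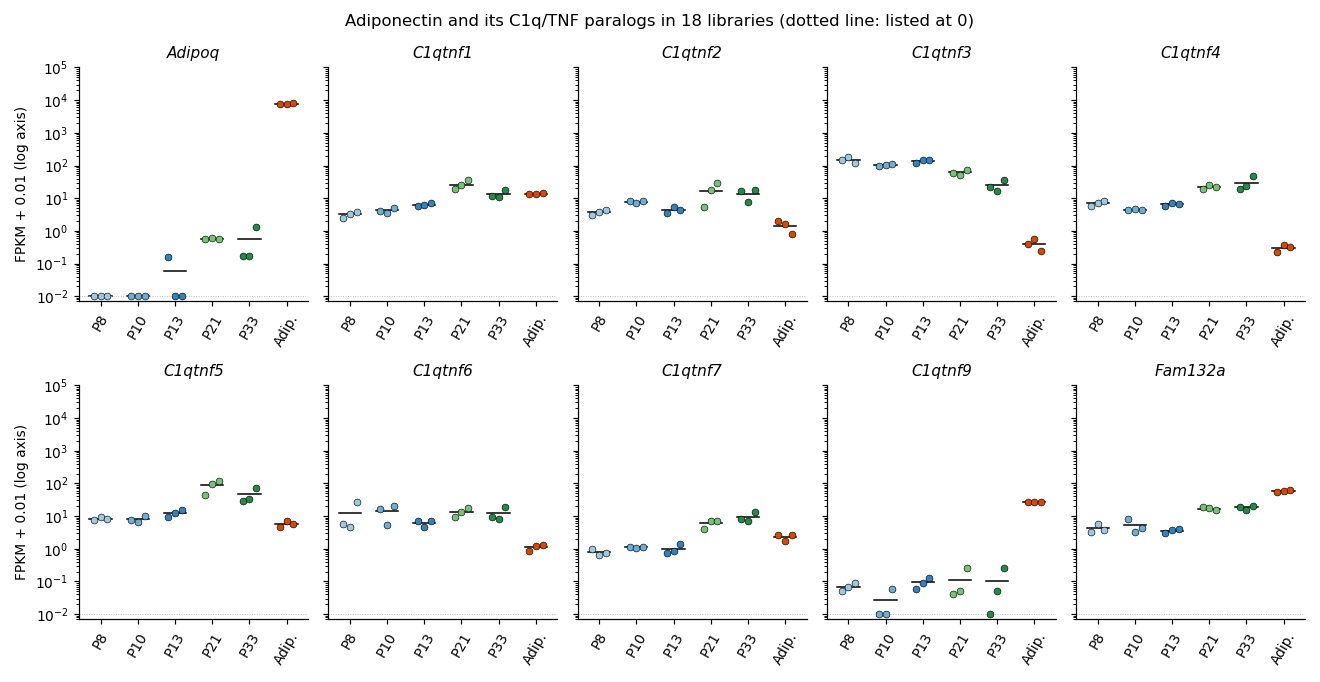
FPKM of Adipoq and its 9 C1q/TNF paralogs in the 18 libraries, on a log axis after adding 0.01, with 3 points a group, a bar at the group mean and a dotted line where a gene is listed at 0. C1qtnf3 averages 150 FPKM at P8 and 25.3 FPKM at P33 against 0.397 FPKM in adipocytes, whereas Adipoq and C1qtnf9 are highest in adipocytes.

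The resistin-like family was likewise low. Retnla, resistin-like alpha, was at 0.307 ± 0.1 FPKM at P33 and 567 ± 17 FPKM in adipocytes, Retnlg was listed at 0 in every lipochondrocyte library against 1.71 ± 0.42 FPKM in adipocytes, and Retnlb was listed at 0 throughout. Retnla rose in P21 against P13 (0.59, SE 0.17, adjusted p = 0.011, limma), a call that was lost without P21 library 3 (0.38, 0.0557) and with only the compared groups in the fit (0.0792).

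Receptors of the adipokines were measured in both cell types. Of 8 tested receptors and partners, 5 were lower and 1 higher in P33 lipochondrocytes than in adipocytes, with 3 higher under median-of-ratios scaling; 44.5% of all genes were lower and 24% higher, so the list's count was near that of all genes. The adiponectin receptor Adipor1 averaged 53.4 ± 6.1 FPKM at P33 and 55.3 ± 2.4 FPKM in adipocytes, a difference of -0.05 (SE 0.12, adjusted p = 0.703, limma), whereas Adipor2 averaged 5.5 ± 0.96 FPKM at P33 and 87.9 ± 0.78 FPKM in adipocytes (-3.79, SE 0.18, 5.88e-11). T-cadherin (Cdh13), which binds adiponectin oligomers, was at 3.16 ± 1.8 FPKM at P33 and 21.1 ± 0.5 FPKM in adipocytes. The angiotensin receptor Agtr2 was the higher one. It averaged 16.5 ± 0.32 FPKM at P8, 15.1 ± 1.1 at P10, 13.8 ± 2.4 at P13, 4.07 ± 0.5 at P21 and 1.05 ± 0.29 at P33, against 0.0167 ± 0.015 FPKM in adipocytes. Agtr2 fell in P21 against P13 (-1.54, SE 0.13, 3.25e-07) and in P33 against P21 (-1.31, SE 0.13, 1.45e-05). In P21 against P13, 4 of the 8 rose, near the 36% of all genes, and with median-of-ratios scaling 1 did. The leptin receptor Lepr averaged 0.283 to 0.757 FPKM at the 5 stages and 0.2 FPKM in adipocytes and did not pass the filter.

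Complement genes around Cfd were all lower in P33 lipochondrocytes than in adipocytes, 6 of the 6 tested. C3, the central component, was at 1.21 ± 0.69 FPKM at P33 and 89.6 ± 4.5 FPKM in adipocytes, and properdin (Cfp) at 0.91 ± 0.3 FPKM at P33 and 23.5 ± 2 FPKM in adipocytes. Factor B (Cfb), the substrate of adipsin, averaged 0.167 ± 0.15 FPKM at P13, 4.07 ± 0.92 at P21 and 14.2 ± 4.8 at P33, against 77.6 ± 2.5 FPKM in adipocytes. It rose in P21 against P13 (2.11, SE 0.21, adjusted p = 1.9e-06) and again in P33 against P21 (1.55, SE 0.21, 2.17e-04, limma). The second of these calls was lost with only the compared groups in the fit. Cfd was called lower in P33 against P21, but that call was lost with median-of-ratios scaling, with the replicate block and without P21 library 2. The inhibitors Cd59a and Cd55 also rose in P21 against P13, which made 4 of 6 with C3 and Cfb.

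In the renin-angiotensin list, 5 of 7 tested genes were lower and 1 higher in P33 lipochondrocytes than in adipocytes, against 44.5% and 24% of all genes. Aminopeptidase A (Enpep) was at 0.0233 ± 0.04 FPKM at P33 and 22.4 ± 1.9 FPKM in adipocytes. Angiotensin-converting enzyme (Ace) was the higher one, at 3.34 ± 0.4 FPKM at P33 and 2.38 ± 0.22 FPKM in adipocytes, a difference that turned to -0.0148 when libraries were given the same sum over genes not encoded by the mitochondrial genome. The call of Ace was also lost with a pseudocount of 0.1 (0.0507, limma). Ace rose in P21 against P13 (1.17, SE 0.12, adjusted p = 2.42e-06) and in P33 against P21 (0.63, SE 0.12, 0.00327, limma). The prorenin receptor Atp6ap2 averaged 20.2 ± 1.7 FPKM at P33 and 21.9 ± 2.5 FPKM in adipocytes and was not called. Ctsd, the lysosomal protease cathepsin D, rose in P21 against P13 (2.08, SE 0.11, 1.9e-09).

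Other carbonic anhydrases were low throughout in lipochondrocytes. Of 9 tested, 6 were lower and 2 higher in P33 lipochondrocytes than in adipocytes, with 0 higher when libraries were given the same sum over genes not encoded by the mitochondrial genome. Membrane-bound Car4 was listed at 0 in the P33 libraries and was at 32 ± 3.9 FPKM in adipocytes, and mitochondrial Car5b was at 2.92 ± 1.1 FPKM at P33 and 54.6 ± 2 FPKM in adipocytes. In P21 against P13, 5 rose, among them Car2 (1.63, SE 0.2, adjusted p = 1.68e-05), a cytosolic isoform that is also abundant in red cells, and Car13 (0.94, SE 0.13, 6.57e-05, limma). Car2 fell in P33 against P21 (-1.03, SE 0.2, 0.00405), a call that was lost with a pseudocount of 0.1 (0.0692).

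Around Pck1, 7 of 10 tested genes of glyceroneogenesis and gluconeogenesis were lower in P33 lipochondrocytes than in adipocytes and none was higher, or 6 lower and 2 higher with median-of-ratios scaling. The mitochondrial isoform Pck2 was among those not called, at 6.18 ± 1.1 FPKM at P33 and 5.26 ± 0.79 FPKM in adipocytes. Glycerol-3-phosphate dehydrogenase (Gpd1) averaged 0.76 ± 0.23 FPKM at P13, 15.1 ± 1.1 at P21 and 6.14 ± 1.5 at P33, against 614 ± 8.2 FPKM in adipocytes. It rose in P21 against P13 (3.2, SE 0.14, adjusted p = 4.65e-10) and fell in P33 against P21 (-1.19, SE 0.14, 8.94e-05, limma). Pyruvate carboxylase (Pcx) rose in P21 against P13 (1.32, SE 0.13, 1.78e-06) and fell in P33 against P21 (-1.05, SE 0.13, 9.45e-05). In all, 6 genes of the list rose in P13 against P10, where 18.6% of all genes were called higher. In P21 against P13, 5 rose, against 36% of all genes, and in P33 against P21, 5 fell, against 7.17%. With median-of-ratios scaling 3 rose in each of the first 2 of these steps, against 8.14% and 16% of all genes.

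Of 9 partners of the intracellular members, 8 were lower in P33 lipochondrocytes than in adipocytes. The glucose transporter GLUT4 (Slc2a4), whose trafficking Tusc5 regulates, averaged 0.357 ± 0.067 FPKM at P13, 14.4 ± 5.2 at P21 and 6.37 ± 0.68 at P33, against 119 ± 5.6 FPKM in adipocytes. It rose in P21 against P13 (3.46, SE 0.2, adjusted p = 6.04e-09) and fell in P33 against P21 (-1.02, SE 0.2, 0.00385, limma; 0.0621 with a pseudocount of 0.1), while Tusc5 did not exceed 0.06 FPKM in those libraries. GLUT4 is also a gene of skeletal muscle. Of the muscle markers, 8 were called higher in P21 against P13 and 1 was called lower in P33 against P21. Their part in the changes of Slc2a4 was not tested. Seipin (Bscl2), a droplet assembly protein, averaged 55.3 ± 11 FPKM at P33 and 300 ± 19 FPKM in adipocytes, and rose in P21 against P13 (0.76, SE 0.15, 8.43e-04), a call that median-of-ratios scaling removed (0.32, 0.14), leaving 2 of the 5 partners that rose in this step.

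Other secreted factors of fat were mixed. Of 21 tested, 15 were lower and 4 higher in P33 lipochondrocytes than in adipocytes. Angptl4, an inhibitor of lipoprotein lipase, was at 2.51 ± 0.26 FPKM at P33 and 387 ± 10 FPKM in adipocytes, and chemerin (Rarres2) at 8.53 ± 1.4 FPKM at P33 and 590 ± 39 FPKM in adipocytes. The matrix protein Sparc was at 164301 ± 34235 FPKM at P33 and 2618 ± 150 FPKM in adipocytes, and Igf1 at 179 ± 18 FPKM at P33 and 135 ± 3.6 FPKM in adipocytes (SD, n = 3 each), of which the Igf1 difference turned to -0.10 with the same sum over genes not encoded by the mitochondrial genome. The retinol carrier Rbp4 averaged 21.9 ± 2.7 FPKM at P13, 330 ± 38 at P21 and 200 ± 156 at P33, against 1703 ± 18 FPKM in adipocytes, and rose in P21 against P13 by 3.86 (SE 0.38, adjusted p = 1.96e-06, limma). In P21 against P13, 10 of the 21 rose and 1 fell, against 36% and 7.04% of all genes. With median-of-ratios scaling 6 of the 21 rose, against 16% of all genes.

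Finally, the genes most like each member in lipochondrocytes were named for the 5 members that reached a stage mean of 1 FPKM, by Pearson's r of log2(FPKM + 1) over the 15 lipochondrocyte libraries among 5437 genes. These r values describe libraries that share stage and isolation, and they carry no test. Adig was most like Rbp4 (r = 0.968), Pole4 (0.961) and Ppp1r3c (0.958), a glycogen-targeting subunit of protein phosphatase. Car3 was most like Cox8b (0.978), a cytochrome oxidase subunit of brown fat and striated muscle, the tropomyosin Tpm1 (0.977) and the epoxide hydrolase Ephx1 (0.977). Cfd was most like H2-K1 (0.941), an MHC class I gene, Mpdu1 (0.933) and Pxmp2 (0.932), a peroxisomal membrane protein. Agt was most like Chmp2b (0.933), Rraga (0.928) and Acly (0.926), the ATP citrate lyase of fatty acid synthesis. Nnat was most like Col12a1 (0.861), Tgfbi (0.818) and Meis1 (0.8), the first being a fibril-associated collagen and the second a matrix protein.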

How the data were processed

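The authors deposited FPKM per gene and library with 2 decimals. Per the submitters' processing notes, STAR 2.4.2a aligned the reads to mm10. What quantified the genes, with which annotation and whether by strand, is not given in the sources used here. The deposited read quality table holds, per the file headers, a count of reads and an alignment rate in percent for every library. Counts per gene were not used here, and intervals for counting error are therefore left out. The FPKM worth of 1 fragment was computed from aligned reads and GENCODE M21 exon lengths, taking total reads as fragments, since the lowest steps of the table then stood for a median of 1.16 fragments.

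The 13815 genes that reached 1 FPKM in 3 or more of the 18 libraries were tested. A pseudocount of 1 was added and log2 values were fitted with limma 3.58.1 (R 4.3.3) as 6 group means over all libraries, with a variance trend on the mean level. For each of 10 comparisons a two-sided p was adjusted by Benjamini-Hochberg over all genes tested and called below 0.05; the median SE was 0.17. The fit was tested on simulated data, with changes placed only in genes above the P13 level of every member. That test therefore does not cover the low range in which the members lie. Descriptive values and plots came from Python 3.11.15, pandas 2.3.3 and matplotlib 3.10.9. There were 0 pairs of identical libraries and 0 unused columns.

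The members and the lists were chosen with earlier results of these data known. All 10 members are given in every library. For each other list the rule took the 3 largest calls in P33 against adipocytes, the 2 largest in any step and the 3 highest lipochondrocyte means, and the text gives a part of these. C1qtnf1, Lepr, Pparg, Adrb3 and Slc4a1 were named after their values were seen. Of 242 list entries, 239 matched by symbol and 3 by an older symbol or identifier. Libraries with the same number did not vary together (correlations of -0.168 to 0.206), and numbers were not used as pairs. The alternatives were other pseudocounts, filters and scalings, fits on fewer groups or with no trend, a replicate block and leaving out each library.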

Additional observations from a re-analysis of the deposited data

How the results depend on the processing

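Agt, Car3, Nnat and Adig were called lower than adipocytes at every stage under every alternative run. So were Adipoq, Lep, Cfd, Retn, Pck1 and Tusc5, but these passed the filter only through the adipocytes and had to differ. Their calls are a description and not a sign of stability. Nnat was the only member called in P13 against P10 and in P13 against P8 under every alternative run. Of the alternatives to called member differences, 895 kept the call, 35 lost it and 0 changed direction. Most of these alternatives belong to the comparisons with adipocytes, which lost no call. All 35 losses fell in P21 against P13 and P33 against P21, so the pooled count overstates how stable those steps were. Of the alternatives to uncalled differences, 549 stayed uncalled in the same direction, 6 became called and 15 changed direction. Members called higher in P21 against P13 numbered 4 with median-of-ratios scaling and 5 to 7 without 1 library. Members called lower in P33 against P21 numbered 0 with a pseudocount of 0.01 or with only the compared groups in the fit, 1 with no filter and 0 to 5 without 1 library. Pck1 became called in P21 against P13 with a pseudocount of 0.1 (1.11, adjusted p = 0.0249) or 0.01 (2.99, 0.0304) and without P21 library 3 (0.29, 0.0167, limma). The replicate block, which treats equal numbers as pairs, ended the call of Cfd in P33 against P21 (adjusted p = 0.062, limma) and left 2 members called lower there and 7 higher in P21 against P13.

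Some differences changed sign. In P10 against P8, Car3 was at 0.0367 with a pseudocount of 0.1, 0.59 with 0.01 and 0.0292 with median-of-ratios scaling, and between -0.0634 and 0.0311 without 1 library, Nnat was at 0.0351 with median-of-ratios scaling, and Tusc5 ran from -0.0116 to 0.0236 without 1 library. Leaving out 1 library gave -0.0484 to 0.24 for Agt and -0.0257 to 0.0095 for Tusc5 in P13 against P8, and -0.43 to 0.0665 for Adipoq in P33 against P21. With median-of-ratios scaling, P21 against P13 turned to -0.0055 for Adipor1, -0.0136 for Angptl4, -0.12 for Igf1 and -0.0117 for Pck2, and with the same sum over genes not encoded by the mitochondrial genome P33 against adipocytes turned to -0.0148 for Ace and -0.10 for Igf1.

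Counts over all genes moved with fewer genes tested: at 5 FPKM in 3 libraries, genes called against adipocytes numbered 6189 at P33, 6150 at P21, 6552 at P13, 6837 at P10 and 6547 at P8, against 9466 at P33, 9331 at P21, 9924 at P13, 10463 at P10 and 9879 at P8 with 1 FPKM. In P10 against P8, 1525 were called, but 985 with no filter, 622 with median-of-ratios scaling, 351 with only the compared groups and 520 (without P10 library 1) to 1493 without 1 library. With only the compared groups 347 of 581 were called in P13 against P8 and 126 of 1388 in P33 against P21, where the calls of Ace, C1qtnf3, Car2, Cfb, Gpd1, Pcx, Slc2a4 and Sncg were lost. Without 1 library the counts ran from 1938 (without P10 library 1) to 2830 in P13 against P10, where 3124 were called with all libraries, from 339 (without P13 library 3) to 509 in P13 against P8 and from 906 (without P21 library 2) to 1802 in P33 against P21. The cause was not tested. For Adig 1 fragment was worth 0.0538 to 0.126 FPKM, and for the longer Pck1 0.0127 to 0.0298 FPKM. Values under about 0.1 FPKM thus stand for few fragments, and for 1 or less in some members. This limits any order among members that low.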
